A study of Homo sapiens with 16 samples.

Results

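The transcriptional response to all-trans retinoic acid (ATRA) was contrasted between SKNO-1 and U-937, 2 established human acute myeloid leukaemia lines, by subtracting the response of SKNO-1 from that of U-937 in every gene. The deposited table holds 60603 genes, and the 19872 with enough counts to be tested were sorted into responses that were shared, restricted to 1 line, or opposite. SKNO-1 cells in DMSO, SKNO-1 cells in 0.1 µM ATRA, U-937 cells in DMSO and U-937 cells in 0.1 µM ATRA were compared after 24 h, with 2 libraries in each of the 4 groups. The other 8 of the 16 libraries came from the same lines in 0.1 µM Corin, a dual inhibitor of LSD1 and the histone deacetylases of the CoREST complex, without and with 0.1 µM ATRA, and gave a second ATRA response. Their values entered none of the sorted comparisons, but they shared the model's filter and estimate of spread. All SKNO-1 cells were grown with GM-CSF at 10 ng/mL and U-937 cells were not, so line and medium cannot be told apart. Each line stands for 1 culture stock, and no label says that the 2 libraries of a group came from separate cultures, so p-values measure the spread between these libraries only. RNA per cell was not measured, and a change of RNA in all cells cannot be told from a change in a fraction of them.

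ATRA is the ligand of the retinoic acid receptors RARA, RARB and RARG, which bind DNA as partners of the retinoid X receptors. Without ligand they hold corepressors at their target genes, and with ligand they recruit coactivators. Among the known targets are genes that limit the signal, such as CYP26A1, which oxidises retinoic acid, and DHRS3, which returns retinaldehyde to retinol. In acute promyelocytic leukaemia ATRA drives blasts towards granulocytes, and in monocytic lines it raises phagocyte genes.

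The labels held against marker genes. RUNX1T1, part of the fusion gene that SKNO-1 is known for, stood at 95.4 and 133 CPM (counts scaled to library size) in SKNO-1 with DMSO and at 0.0302 and 0 CPM in U-937 with DMSO. HOXA9 and HOXA10 had 0 counts in all 4 SKNO-1 libraries, and HOXA10 was at 87.2 and 78.3 CPM in U-937 with DMSO. The myeloid markers PTPRC, CD33 and LYZ were detected in every library, whereas MPO was at 3790 and 2800 CPM in SKNO-1 with DMSO and at 0.121 and 0.262 CPM in U-937. Of 14 markers of other cell types the summed level was 8.56 and 8.62 CPM in SKNO-1 and 61.8 and 116 CPM in U-937 with DMSO and ATRA. That sum was nearly all PECAM1 (58.9 and 112 CPM in U-937), while MS4A1, HBB, ALAS2, EPCAM and CDH1 had 0 counts in all 8 libraries. Library totals lay between 28.4 and 37.8 M counts. The 2 SKNO-1 DMSO libraries stood apart from each other: their log2 difference had an SD of 0.354 across 9857 genes and followed GC content (Pearson r of 0.78 across genes), against SDs of 0.117 to 0.198 in the other 7 groups.

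CYP26A1 and RARB stand at the centre of the contrast, and the bases before a start site of each are shown because both hold the element that the receptors are known to bind. The element searched was a direct repeat, on either strand and with 5 bases between its parts, in which each part is AGGTCA or GGGTCA or AGTTCA or GGTTCA. This definition was set after these 2 sequences had been seen. A first one, of half-sites 5 bases long at the same spacing, matched 55 windows (0.157%) and neither RARB nor CYP26A1, so the matches are no independent finding. Capitals mark the match in the RefSeq promoter windows (GRCh38.p14), written 5′ to 3′ along the gene.
RARB: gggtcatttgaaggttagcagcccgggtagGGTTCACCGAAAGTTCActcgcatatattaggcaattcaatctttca
CYP26A1: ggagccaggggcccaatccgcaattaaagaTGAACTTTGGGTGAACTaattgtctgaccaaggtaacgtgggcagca
The RARB stretch is chr3:25428180-25428256 on the plus strand, and its match begins 53 bases before the start site. The CYP26A1 stretch is chr10:93073773-93073849, also on the plus strand; its match lies on the opposite strand and begins 90 bases before the start. Such a repeat was found in 31 of 35116 RefSeq windows (0.0883%), each reaching from 250 bases before to 50 after a start. Of the tested genes with a window, 10 of 12257 (0.0816%) held it. The 1 of 272 shared genes that rose was RARB, and the 1 of 25 SKNO-1-restricted genes that rose was CYP26A1. The definition was set on these 2 genes, so their matches say nothing about their classes. A repeat was also held by 3 of 1135 U-937-restricted genes that rose and 1 of 139 opposite genes higher in U-937. None was found in the genes that fell, 133 SKNO-1-restricted, 1218 U-937-restricted and 204 shared. The 24 opposite genes higher in SKNO-1 held none either. A match is a description of the letters only, and elements outside these windows were not searched.

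U-937 responded in far more genes than SKNO-1. In edgeR's quasi-likelihood test with a Benjamini-Hochberg adjusted p under 0.05, hereafter called, ATRA raised 3617 genes (18.2% of those tested) and lowered 3464 (17.4%) in U-937, while SKNO-1 had 527 (2.65%) raised and 828 (4.17%) lowered. The difference between the responses was called in 3850 genes (19.4%), of which 2100 (10.6%) had the higher response in U-937 and 1750 (8.81%) the lower. That split depended on scaling: with library totals alone, which moved the median difference from 0.04 to -0.05 on the log2 scale, it was 1726 against 2358. It also depended on single libraries: without any 1 of the 8, the number with the lower response in U-937 (1500 to 2511) was above the number with the higher (1307 to 2480). Across the 12022 genes expressed in both lines, the log2 responses of the lines correlated with a Pearson r of 0.31, a description across genes, which are not independent and share each line's DMSO libraries.

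Sorting gave 624 shared genes, called in both lines with the same sign, of which 355 rose and 269 fell. It gave 3066 U-937-restricted genes, called there and not in SKNO-1 and with a called difference, of which 1505 rose and 1561 fell. The SKNO-1-restricted class held 209 genes, 33 that rose and 176 that fell. Opposite responses, called in both lines with unlike signs and a called difference, numbered 209, of which 179 rose in U-937 and fell in SKNO-1 and 30 did the reverse. The sorting left 3495 genes called in 1 line only without a called difference, 2201 of the 3182 called in U-937 having the same sign in SKNO-1, so a missed call in SKNO-1 is not by itself a different response. In 506 of those 3182 each SKNO-1 group held at most 3 counts. A further 156 genes had a called difference and no call in either line, and 12113 had none. Genes of at least 1 CPM in both lines made up 541 of the shared, 2776 of the U-937-restricted, 165 of the SKNO-1-restricted and 181 of the opposite genes, so most genes of each class were expressed in both lines.

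The 2 SKNO-1 DMSO libraries bore on the smaller classes. Without the first, the SKNO-1-restricted genes numbered 231 higher and 203 lower and the opposite genes 231 and 179. Without the second these were 128 and 254, and 303 and 112. With the GC trend between libraries removed they were 79 and 233, and 281 and 72. The excess of falls among SKNO-1-restricted genes was therefore lost without the first SKNO-1 DMSO library, while opposite genes that rose in U-937 outnumbered the reverse in each of these settings. The other 6 libraries lowered several counts. Without 1 of them, 944 to 1010 U-937-restricted genes rose and 1352 to 1587 fell, in place of 1505 and 1561. Without the first or the second SKNO-1 ATRA library 131 shared genes fell in either case, 100 and 102 opposite genes rose in U-937, and 106 and 123 SKNO-1-restricted genes fell. Shared falls numbered 170 without the second U-937 ATRA library.

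**Figure D1:**
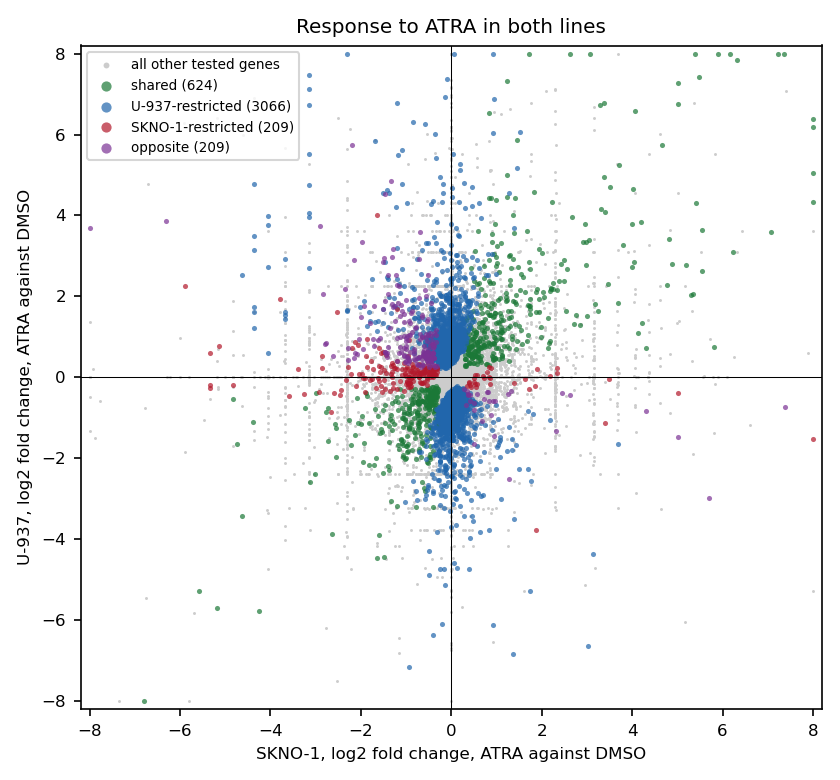
Each point is 1 tested gene, with its log2 fold change, ATRA against DMSO, in SKNO-1 (x axis) and U-937 (y axis), coloured by class; values beyond 8 are drawn at the edge, and points in straight columns are genes with very few counts in SKNO-1. The 3066 U-937-restricted genes lie along the vertical axis, the 624 shared genes in the upper right and lower left, and the 209 opposite genes mainly in the upper left.

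**Figure D2:**
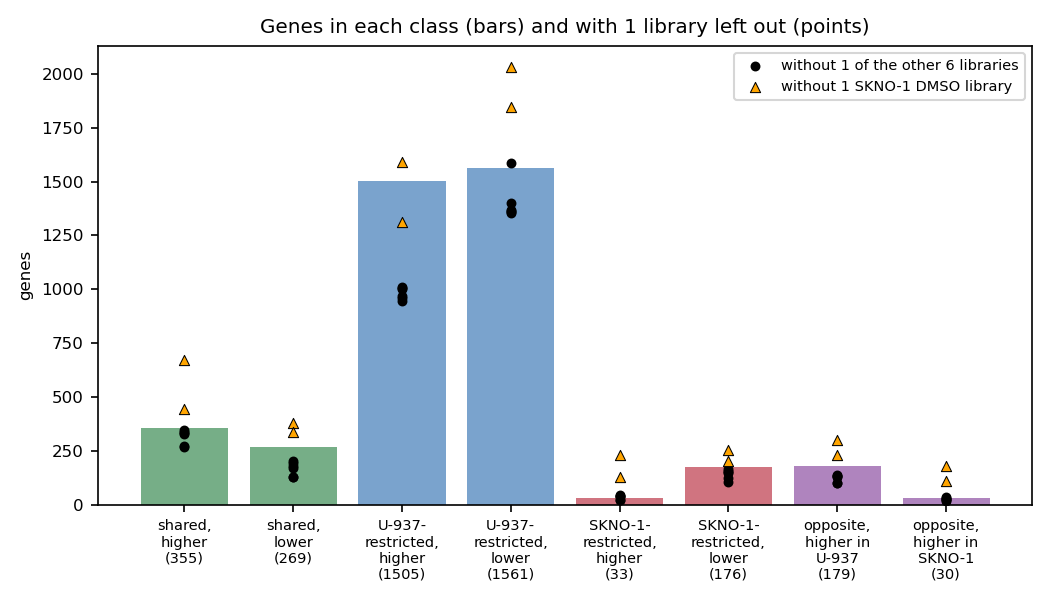
Bars give the number of genes in each class and direction (printed below each bar), black points the number without 1 of the other 6 libraries and orange triangles the number without 1 of the SKNO-1 DMSO libraries. Leaving out a SKNO-1 DMSO library raised the SKNO-1-restricted higher class from 33 to 231 or 128 and the opposite class higher in SKNO-1 from 30 to 179 or 112.

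The classes were also described by gene type, level and GC content; the levels come from the counts that made the calls. Protein-coding genes made up 92.5% of shared, 90.2% of U-937-restricted, 90.9% of SKNO-1-restricted and 93.3% of opposite genes, against 70.1% of all tested genes, in which low counts are more frequent. The median DMSO level in U-937 was 13.4 CPM for shared genes that rose and 46.2 CPM for U-937-restricted genes that fell, against 5.90 CPM over all tested genes. Median GC content was 50.2% in shared genes that rose and 45.1% in U-937-restricted genes that fell, with 47.6% over all tested genes. Before treatment, 41.5% of the U-937-restricted genes that rose stood higher in U-937 than in SKNO-1, and 66.7% of the 30 opposite genes higher in SKNO-1 did so, against 48.9% of all tested genes.

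Of the 22 tested genes of a list of retinoic acid targets, 8 rose in both lines, against 1.79% of all tested genes. RARB, the receptor whose own gene is a target, had 0 counts in all 4 DMSO libraries. With ATRA it reached 0.554 and 0.666 CPM in SKNO-1 and 20.4 and 19.9 CPM in U-937. It was thus silent at this depth in both lines before treatment and far more abundant in treated U-937. The rise was at least 14.1-fold in SKNO-1 and at least 427-fold in U-937 against a floor of 3 counts over the DMSO group (edgeR adjusted p of 2.98e-05 and 2.54e-11). The model returned no call for the difference (adjusted p of 1), as it cannot set 1 response against the other where both DMSO groups are at 0. DHRS3 stood at 0 and 0 CPM in SKNO-1 with DMSO and reached 3.26 and 3.80 CPM in treated cells, a rise of at least 81.3-fold. In U-937 it went from 3.38 and 2.72 to 94.4 and 110 CPM, a log2 rise of 5.06 ± 0.16 (SE, edgeR adjusted p = 5.54e-14). The treated level in SKNO-1 was thus about the untreated level in U-937. Its difference was called at -4.84 on the log2 scale (edgeR adjusted p of 0.01), so the larger log2 response was that of SKNO-1. The SKNO-1 DMSO group held 0 counts, so this value depends on a small added count and is no bound. Without either SKNO-1 DMSO library it missed the threshold (-4.86 in each case).

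HIC1, which encodes a transcriptional repressor, rose nearly alike in both lines. In SKNO-1 its libraries were at 0.24 and 0.169 CPM in DMSO and at 28.9 and 33.2 CPM in ATRA. In U-937 they were at 0.0302 and 0.0983 CPM, then 19.7 and 22.7 CPM. The log2 rises were 7.23 ± 0.22 and 8.31 ± 0.27, and their difference of 1.09 ± 0.63 was not called (edgeR adjusted p = 0.337), a miss that does not show equal responses. PLAAT4, a phospholipase-like enzyme induced by retinoids, was a second such gene, with log2 rises of 4.03 ± 0.24 and 4.65 ± 0.24 (difference 0.62 ± 0.39, adjusted p = 0.422).

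Other shared targets rose much more in U-937. TGM2, tissue transglutaminase, went from 2.79 and 2.25 to 15.0 and 16.2 CPM in SKNO-1. In U-937 it went from 0 and 0.0328 to 77.6 and 75.7 CPM, so the order of the lines reversed with treatment. Its difference was 9.31 ± 0.41 on the log2 scale (edgeR adjusted p = 1.24e-11), with 1 count over both U-937 DMSO libraries. CD38, an ectoenzyme that consumes NAD, went from 224 and 259 to 576 and 558 CPM in SKNO-1, and from 12.7 and 11.5 to 389 and 378 CPM in U-937. CD38 was thus already high in untreated SKNO-1, and its response was larger in U-937 by 3.76 ± 0.14. CXCR5, a chemokine receptor, rose from 1.17 and 0.789 to 7.29 and 8.99 CPM in SKNO-1 and from 0 counts to 3.73 and 4.14 CPM in U-937. The chemokine CCL24 reached 6.18 and 6.77 CPM in SKNO-1 and 17.9 and 20.6 CPM in U-937, from at most 0.12 CPM in any DMSO library. Its difference of 3.80 ± 1.07 (adjusted p = 0.0105) was not called without the first SKNO-1 DMSO library (0.167) or the second U-937 DMSO library (0.0928). SIGLEC11, a sialic acid receptor, went from 0 and 0.0983 to 11.9 and 11.6 CPM in U-937, but its difference was not called (edgeR adjusted p = 0.924). In SKNO-1 it rested on 0.461 and 0.139 CPM with ATRA, and its call there was lost without the first SKNO-1 ATRA library. It was also called in 1 line only with the 8 libraries fitted alone and with each line fitted alone. In all, 210 of the 624 shared genes had a called difference, 157 with the larger response in U-937 and 53 with the larger in SKNO-1. ICAM1, an adhesion molecule, was among the 53: it rose by 1.13 ± 0.11 in SKNO-1 and by 0.54 ± 0.11 in U-937.

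**Figure D3:**
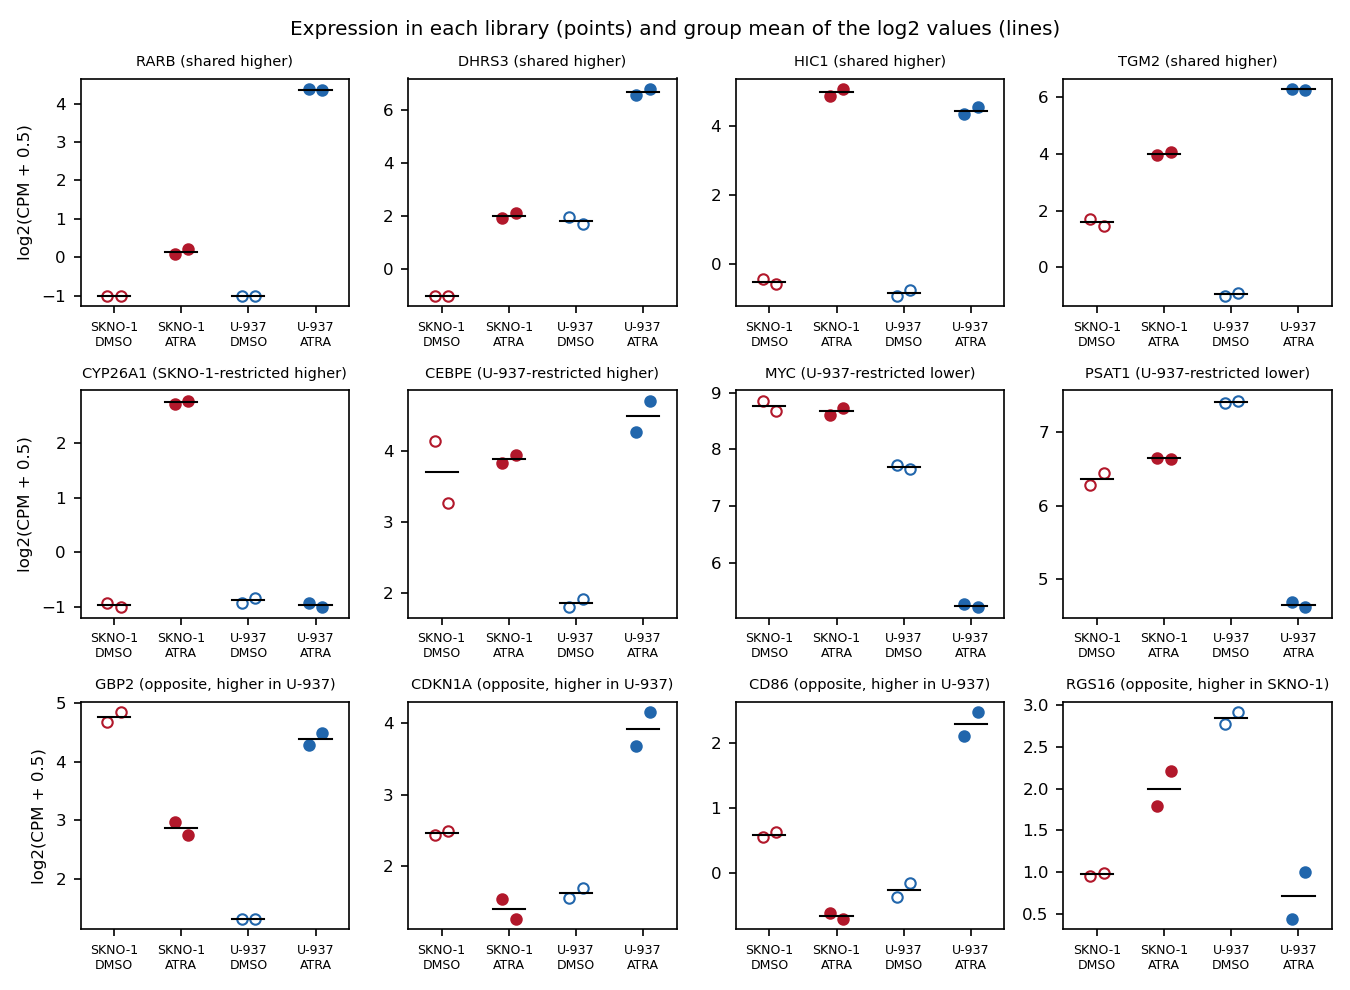
Expression of 12 genes as log2(CPM + 0.5), 1 point per library (open for DMSO, filled for ATRA, red for SKNO-1 and blue for U-937) with a line at each group mean; the y axes differ between panels and do not start at 0. RARB, DHRS3, HIC1 and TGM2 rose in both lines, CYP26A1 in SKNO-1 libraries alone, and GBP2, CDKN1A and CD86 fell in SKNO-1 and rose in U-937.

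Shared falls included EGR1, an immediate early transcription factor, and SLC1A3, a glutamate transporter. EGR1 went from 12.8 and 19.9 to 1.69 and 2.03 CPM in SKNO-1 and from 2.57 and 2.33 to 0.506 and 0.293 CPM in U-937, log2 falls of -3.13 ± 0.24 and -2.59 ± 0.31. SLC1A3 went from 9.12 and 10.3 to 2.83 and 2.19 CPM and from 39.6 and 44.7 to 10.3 and 9.30 CPM. Both lines thus lost a similar fraction, and the difference was -0.15 ± 0.19 (edgeR adjusted p = 0.692). The pseudokinase STYK1 fell by 1.83 ± 0.21 in SKNO-1 and by 2.18 ± 0.48 in U-937. The potassium channel gene KCNN2 fell from 19.8 and 19.8 to 2.08 and 1.55 CPM in U-937. In SKNO-1 it was below 0.5 CPM throughout, and with Corin alone it had 0 counts there, so that a fall could not be measured. RDH10, which oxidises retinol to retinaldehyde, fell in both lines, by 1.34 ± 0.12 and 0.92 ± 0.12. NCOA3, a receptor coactivator, rose in both, from 49.7 and 59.9 to 130 and 126 CPM in SKNO-1 and from 57.3 and 63.2 to 240 and 237 CPM in U-937.

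CYP26A1 ranked first among SKNO-1-restricted genes that rose. Its SKNO-1 libraries were at 0.03 and 0 CPM in DMSO and at 6.03 and 6.30 CPM in ATRA. In U-937 they were at 0.0302 and 0.0655 CPM in DMSO and at 0.0266 and 0 CPM in ATRA. Of these 4 groups only SKNO-1 with ATRA held more than 3 counts, the reverse of the order of treated levels seen for the receptor gene above. For CYP26A1, with 1 count over both SKNO-1 DMSO libraries, the ratio was 425 (exact conditional 95% interval 75.8 to 16800, counting error only). The difference was -9.93 ± 1.77 on the log2 scale (edgeR adjusted p = 0.000381). DUSP4, a MAP kinase phosphatase, rose from 3.33 and 3.41 to 15.3 and 15.6 CPM in SKNO-1, while its U-937 libraries were at 22.6 and 27.6 CPM, then 27.7 and 24.0 CPM. The U-937 libraries of the 2 treatments overlapped, and ATRA brought SKNO-1 closer to their level. STOX2 and the pseudogene USP32P3 followed the same form at below 1 CPM in SKNO-1; reads of USP32P3 are shared with close copies, so its value is uncertain.

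Falls restricted to SKNO-1 included FST, the activin antagonist follistatin, from 9.12 and 9.53 to 0.769 and 0.999 CPM. Its U-937 libraries overlapped, at 0.484 and 1.05 CPM in DMSO and 0.72 and 1.03 CPM in ATRA, and the difference was 3.58 ± 0.48 (edgeR adjusted p = 2.37e-05). SERINC2 fell from 7.86 and 3.44 to 0.708 and 0.832 CPM. TNFSF10, the death ligand TRAIL and an ATRA target in other leukaemia cells, fell from 35.2 and 38.7 to 8.18 and 7.05 CPM in SKNO-1 and was at 2.63 and 2.52, then 3.20 and 2.90 CPM in U-937. RXRA, the main partner of the receptors in myeloid cells, fell in SKNO-1 from 7.20 and 5.44 to 2.80 and 2.94 CPM. In U-937 it stayed between 22.7 and 25.9 CPM in all 4 libraries. IKZF1, the lymphoid and myeloid factor Ikaros, fell from 189 and 217 to 134 and 140 CPM in SKNO-1. KIRREL2 and NXN, the first of the class by rank, lay at or below 0.18 CPM in SKNO-1, and both calls were lost without either SKNO-1 ATRA library, that of NXN also without the first SKNO-1 DMSO library.

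Of 18 myeloid transcription factors tested, 5 were U-937-restricted, against 15.4% of all tested genes. Of these 3 rose and 2 fell, where 7.57% and 7.86% of all tested genes were in those classes. CEBPE, a factor of late granulocyte development, was listed with the retinoic acid targets and is not one of these 18. It was U-937-restricted too and rose from 2.96 and 3.24 to 18.9 and 25.9 CPM in U-937. In SKNO-1 it was at 17.2 and 9.13 CPM in DMSO and 13.8 and 15.0 CPM in ATRA, so its ATRA libraries lay between the DMSO ones. The difference was 2.72 ± 0.32 (edgeR adjusted p = 1.98e-05), but without the first SKNO-1 DMSO library the gene counted as shared. CEBPB rose by 1.83 ± 0.14 in U-937 and by 0.54 ± 0.16 in SKNO-1, where it just missed the threshold (adjusted p = 0.0507) and passed it without the first SKNO-1 DMSO library or either U-937 ATRA library. SPI1, the myeloid factor PU.1, rose by 0.95 ± 0.21 in U-937, and its difference of 0.99 ± 0.29 (adjusted p = 0.0285) was lost with the 8 libraries fitted alone and without the first SKNO-1 DMSO, either SKNO-1 ATRA, the second U-937 DMSO or the second U-937 ATRA library (adjusted p of 0.0796 to 0.17). Without the second U-937 DMSO library the U-937 rise of SPI1 was itself not called. The retinol dehydrogenase DHRS9 rose from 2.42 and 2.98 to 15.4 and 14.5 CPM in U-937 alone. By rank the class was led by KCNH4, a potassium channel with 0 counts in the U-937 DMSO libraries and 5.12 and 5.22 CPM after treatment, a rise of at least 110-fold. GPR34, a receptor for lysophosphatidylserine, rose from 0.121 and 0.36 to 9.62 and 14.1 CPM there. CREB3L3 reached 6.37 and 5.66 CPM. GBP5, an interferon-induced GTPase, rose from 14.9 and 15.9 to 129 and 144 CPM and was nearly absent from SKNO-1 (at most 0.113 CPM). KCNH4 counted as shared and GBP5 as opposite without the first SKNO-1 DMSO library, and the GBP5 difference missed the threshold without the second (adjusted p = 0.0668).

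MYC fell in U-937 only, from 212 and 201 to 38.7 and 37.0 CPM, a log2 change of -2.45 ± 0.09. SKNO-1 libraries overlapped at 464 and 410 CPM in DMSO and 388 and 425 CPM in ATRA, and the difference was -2.34 ± 0.13 (edgeR adjusted p = 2.85e-10). MYB, a factor of progenitor growth, fell from 605 and 621 to 382 and 377 CPM in U-937 and stayed between 568 and 648 CPM in SKNO-1. TERT, the telomerase subunit, went from 1.57 and 1.31 to 0.0266 and 0 CPM in U-937 and from 8.07 and 6.03 to 5.01 and 5.66 CPM in SKNO-1, where it was not called. WT1 was high in SKNO-1 (25.5 to 32.2 CPM) and fell in U-937 from 0.272 and 0.229 CPM to 0 counts. WWC1 and NRXN3 also fell in U-937 only, each with 1 line near 0. The difference was lost for WWC1 without the second U-937 DMSO or either U-937 ATRA library and for NRXN3 without the second SKNO-1 ATRA library. KDM1A, which encodes the demethylase LSD1, fell by 0.69 ± 0.08 in U-937, from 240 and 258 to 157 and 151 CPM, with SKNO-1 between 262 and 286 CPM. RARG fell in U-937 by 1.17 ± 0.20. RARA was called in neither line, with changes of 0.39 ± 0.17 and 0.20 ± 0.17, though without the first SKNO-1 DMSO library it was called in 1 line.

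Opposite responses were mostly rises in U-937 and falls in SKNO-1. GBP2, an interferon-induced GTPase, went from 25.0 and 28.2 to 7.38 and 6.21 CPM in SKNO-1 and from 1.99 and 2.00 to 18.9 and 21.9 CPM in U-937. The line with the higher level changed with ATRA. The log2 changes were -1.97 ± 0.13 and 3.35 ± 0.15, a difference of 5.32 ± 0.20 (edgeR adjusted p = 3.53e-12). BTG2, an antiproliferative gene, went from 17.8 and 16.4 to 4.09 and 4.88 CPM in SKNO-1 and from 2.75 and 2.85 to 9.01 and 10.0 CPM in U-937. CDKN1A, the cyclin-dependent kinase inhibitor p21, went from 4.92 and 5.13 to 2.40 and 1.89 CPM in SKNO-1 and from 2.42 and 2.72 to 12.3 and 17.3 CPM in U-937. CD86, a costimulatory ligand of phagocytes, went from 0.96 and 1.04 to 0.154 and 0.111 CPM in SKNO-1 and from 0.272 and 0.393 to 3.81 and 5.04 CPM in U-937. The naming rule or the choice after seeing values fixed that the treatments did not overlap in these 4 genes. None of the 4 left the opposite class in the refits under other settings or without 1 library.

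Several opposite calls were less firm. MS4A4A rose from 2.33 and 2.85 to 137 and 138 CPM in U-937, but its fall in SKNO-1, from 0.33 and 0.366 to 0.0923 and 0.0555 CPM, was lost without any 1 of the 4 SKNO-1 libraries. ITGAL, an integrin chain, rose from 21.5 and 20.9 to 92.1 and 83.6 CPM in U-937, while in SKNO-1 it had 1 count in each ATRA library. That SKNO-1 call was lost without either of them. CSF3R, the receptor for G-CSF, rose by 2.00 ± 0.13 in U-937 and fell by 0.56 ± 0.13 in SKNO-1, a fall not called without the first SKNO-1 DMSO library or either SKNO-1 ATRA library.

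Few genes rose in SKNO-1 and fell in U-937. RGS16, a regulator of G protein signalling, went from 1.44 and 1.49 to 2.95 and 4.11 CPM in SKNO-1 and from 6.35 and 7.04 to 0.853 and 1.50 CPM in U-937, with a difference of -3.78 ± 0.34 (edgeR adjusted p = 2.06e-07). SMIM24 went from 9.57 and 9.56 to 18.4 and 18.5 CPM and from 13.1 and 14.8 to 5.46 and 4.61 CPM. ASB2, a ubiquitin ligase subunit induced by ATRA in promyelocytic cells, rose from 0.36 and 0.451 to 2.00 and 2.50 CPM in SKNO-1 and fell from 16.6 and 15.4 to 12.7 and 11.6 CPM in U-937. Its U-937 fall of -0.39 ± 0.12 was lost without the first U-937 DMSO or the second U-937 ATRA library. ANKEF1 rested on 8 counts or fewer in treated SKNO-1 and lost its SKNO-1 call without any 1 of the 4 SKNO-1 libraries. AGAP7P belongs to a family of near-identical copies and is uncertain; without the second SKNO-1 DMSO or ATRA library it was called in U-937 only, and without the first U-937 DMSO or ATRA library in SKNO-1 only.

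Of 32 listed retinoic acid targets 22 were tested. In SKNO-1 10 rose and 4 fell, against 2.65% and 4.17% of all tested genes. In U-937 13 rose and 4 fell, against 18.2% and 17.4%, so the falls there were near that share. The 4 falls in U-937 were 2 in the 8-library fit and without its first DMSO or second ATRA library. Their median log2 change in SKNO-1 was 0.31 and in U-937 1.13, against -0.01 and 0.00 over all tested genes. By class 8 were shared, 3 U-937-restricted, 2 SKNO-1-restricted and 3 opposite. LRRC32, a docking receptor for latent TGF-beta, was shared, from 0 counts in both lines to 1.26 and 1.86 CPM in SKNO-1 and 0.107 and 0.44 CPM in U-937. PRAM1, an adaptor named for its induction by retinoic acid, rose by 2.53 ± 0.30 in SKNO-1 and 1.64 ± 0.20 in U-937. Of 17 receptors and cofactors tested, 2 rose and 1 fell in SKNO-1, where 2.65% and 4.17% of all tested genes did. In U-937 6 rose and 3 fell, against 18.2% and 17.4%, the falls near that share. The 6 rises were 4 with library totals, in the 8-library fit and without either U-937 DMSO or the first U-937 ATRA library, and the SKNO-1 falls were 2 without the first SKNO-1 DMSO library. Per length, treated RARB was at 0.30 ± 0.0283 TPM (length-scaled transcript abundance, mean ± SD, n = 2) in SKNO-1 and at 7.52 ± 0.792 TPM in U-937. RARA was at 6.73 ± 0.375 and 7.52 ± 0.502 TPM, so RARA was the more abundant of the pair in SKNO-1, while in U-937 the 2 means were equal. On the same scale treated CYP26A1 was at 4.67 ± 0.134 TPM in SKNO-1 and 0.01 ± 0.0141 TPM in U-937, and treated DHRS3 at 1.46 ± 0.106 and 45.2 ± 1.83 TPM.

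Most genes of the phagocyte list rose in U-937. Of its 27 genes, all tested, 20 rose and 3 fell in U-937, against 18.2% and 17.4% of all tested genes, while 5 rose and 6 fell in SKNO-1, against 2.65% and 4.17%. The 6 falls in SKNO-1 were 3 without either SKNO-1 ATRA library, where the rises were 4 and 3, and the 3 falls in U-937 were 1 without the second U-937 DMSO or either U-937 ATRA library. The difference was called with U-937 above in 18 and below in 1, against 10.6% and 8.81% of all tested genes. The medians were 1.92 in U-937 and 0.01 in SKNO-1. ITGAM, the integrin chain CD11b and a marker of ATRA-induced differentiation, went from 4.65 and 4.42 to 96.0 and 105 CPM in U-937 and from 0.45 and 0.338 to 0.984 and 0.888 CPM in SKNO-1. The SKNO-1 call was lost without its second DMSO library. CD68, a lysosomal glycoprotein of macrophages, was shared, at 6.90 and 5.10, then 14.8 and 14.3 CPM in SKNO-1 and at 34.4 and 32.3, then 257 and 272 CPM in U-937. CYBB, the oxidase core, went from 16.8 and 17.6 to 211 and 213 CPM in U-937 and had 1 count in SKNO-1, so its difference could not be called (adjusted p = 0.892). FCGR1A, the high-affinity Fc receptor, rose from 13.5 and 15.2 to 40.0 and 39.9 CPM in U-937 and fell from 34.7 and 30.4 to 20.4 and 21.1 CPM in SKNO-1. FCGR2A fell in both lines, by 1.13 ± 0.09 in SKNO-1 and by 0.28 ± 0.09 in U-937, the latter not called without any 1 of the 4 U-937 libraries.

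Of 17 granule genes tested, 6 rose and 1 fell in U-937 (18.2% and 17.4% of all tested genes did), and 2 rose and 3 fell in SKNO-1 (2.65% and 4.17%). In SKNO-1 the falls were 0 and 1 without the first and the second ATRA library, and the rises were 5 without the first DMSO library. In U-937 the rise count ran from 4 to 9 when 1 library was left out, lowest without its second ATRA library and highest without either SKNO-1 DMSO library, and no fall was called without any 1 of the U-937 libraries. PRTN3, proteinase 3, was shared, from 11.1 and 5.55 to 28.1 and 33.1 CPM in SKNO-1 and from 46.8 and 34.4 to 120 and 128 CPM in U-937. BPI, a bactericidal granule protein, rose from 0.484 and 0.164 to 6.74 and 6.39 CPM in U-937 only. S100A9, a calcium-binding protein of mature phagocytes, rose there from 2.48 and 3.01 to 36.4 and 39.6 CPM; with 4 or fewer counts per SKNO-1 group its difference (adjusted p = 0.0292) was lost without either SKNO-1 DMSO library or the first ATRA library (0.088 to 0.14). CTSG, cathepsin G, fell in SKNO-1 from 13.0 and 9.72 to 6.15 and 6.49 CPM, a call lost without the first SKNO-1 ATRA library. CEBPA rose in SKNO-1, from 9.99 and 7.50 to 15.3 and 15.8 CPM, but its difference from U-937 of -0.58 ± 0.18 (adjusted p = 0.0242) was lost in 6 alternatives, with adjusted p-values of 0.0522 to 0.0904, among them the fits without the second SKNO-1 ATRA, the first U-937 DMSO and the first U-937 ATRA library. Without either SKNO-1 DMSO library CEBPA counted as shared.

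Interferon-stimulated genes rose mainly in U-937. Of 28 tested, 18 rose and 2 fell there, where 18.2% and 17.4% of all tested genes did, while 7 rose and 4 fell in SKNO-1, where 2.65% and 4.17% did. The medians were 1.31 and 0.02. The 7 rises in SKNO-1 were 3 without its second ATRA library and in the 8-library fit, and the U-937 falls were 1 without its second DMSO or second ATRA library. IRF1, a factor that ATRA is known to induce, rose in both lines, from 26.3 and 21.5 to 74.6 and 77.6 CPM in SKNO-1 and from 8.76 and 8.45 to 103 and 107 CPM in U-937. OAS3 rose alike, by 2.24 ± 0.23 and 2.19 ± 0.11 (difference -0.05 ± 0.28, edgeR adjusted p = 0.99). STAT2 rose only in U-937, by 1.15 ± 0.09. RSAD2 (viperin) fell in SKNO-1 from 18.6 and 19.4 to 8.18 and 9.13 CPM and rose in U-937 from 2.36 and 1.93 to 4.72 and 3.87 CPM.

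Genes listed for amino acid and one-carbon metabolism fell in U-937 alone. Beside enzymes the list holds the regulators ATF4, DDIT3 and TRIB3, so its counts are not those of enzymes only. Of 14 tested, 12 fell and 1 rose in U-937 (17.4% and 18.2% of all tested genes did), with a median of -1.46. In SKNO-1 none fell and 1 rose (4.17% and 2.65% of all tested genes did), with a median of 0.04. The rises in SKNO-1 were 5 without its first DMSO library (median 0.26), 2 without the second, where 1 gene fell, and 4 with the GC trend removed. In U-937 12 fell in each refit, and the 1 rise was 2 without either SKNO-1 DMSO library and 0 without the second U-937 DMSO or ATRA library. The list was chosen with these data known and is no independent evidence of that direction. The 9 U-937-restricted members, a class of 15.4% of all tested genes, included PSAT1 and PHGDH of serine synthesis. PSAT1 went from 167 and 171 to 25.3 and 24.1 CPM in U-937 and from 77.2 and 86.5 to 99.6 and 98.8 CPM in SKNO-1, where a rise was called with the GC trend removed or without the second DMSO library. PHGDH went from 189 and 179 to 63.7 and 68.4 CPM in U-937. CBS, which commits homocysteine to cysteine synthesis, went from 16.4 and 13.9 to 0.746 and 0.499 CPM in U-937; in SKNO-1 the DMSO libraries were at 41.4 and 23.5 CPM, with ATRA between them at 31.3 and 36.7 CPM, and without the first DMSO library CBS counted as opposite. ASNS, asparagine synthetase, was opposite, from 29.6 and 29.7 to 40.4 and 43.8 CPM in SKNO-1 and from 26.6 and 25.0 to 8.58 and 7.80 CPM in U-937. Of 23 proliferation genes none was called in SKNO-1, and in U-937 3 rose and 6 fell, where 18.2% and 17.4% of all tested genes did, among them RRM2 (a rise of 0.64 ± 0.09) and MCM6 (a fall of 0.64 ± 0.10). The 6 falls were 3 with the replicate block and without the first U-937 DMSO or second U-937 ATRA library, and 2 without the second U-937 DMSO or first U-937 ATRA library. Without the first SKNO-1 DMSO library 3 of these genes rose and 1 fell in SKNO-1, and without the second 1 fell.

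**Figure D4:**
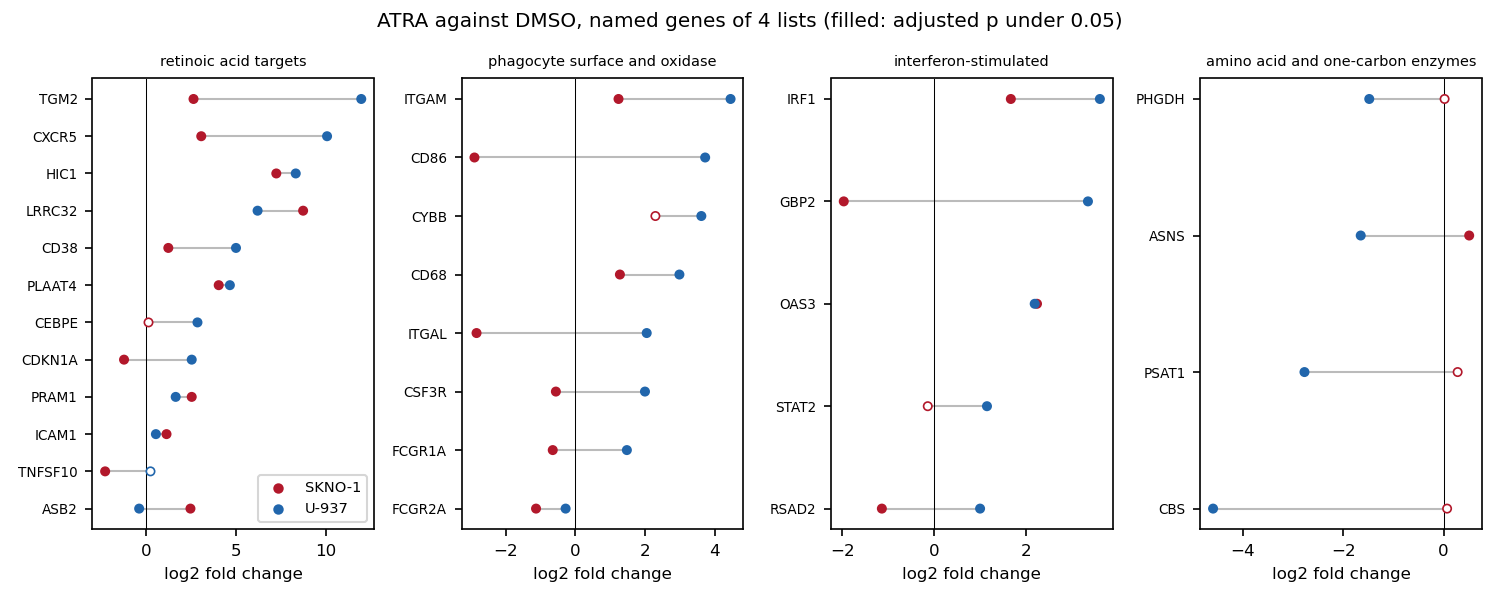
Log2 fold change, ATRA against DMSO, of the genes of 4 lists that the text names, in SKNO-1 (red) and U-937 (blue), joined by a line and filled where called; the x axes differ between panels. The genes shown were chosen after their values were seen and do not stand for the whole lists; all 4 amino acid enzymes shown have a filled blue point to the left of 0. Points of genes with 0 counts in a group depend on a small added count and are not bounds.

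The ATRA response was measured a second time by comparing cells in Corin and ATRA with cells in Corin. There ATRA raised 1201 genes (6.04%) and lowered 1419 (7.14%) in SKNO-1, and raised 5253 (26.4%) and lowered 5359 (27.0%) in U-937. The difference between the lines was called higher in U-937 in 3680 genes (18.5%) and lower in 4100 (20.6%). Genes higher in both lines made up 3.14% of those tested, genes lower in both 2.58%, genes lower in SKNO-1 and higher in U-937 2.06%, and the reverse 1.22%. Across the 12022 genes expressed in both lines, the difference without Corin and the difference with Corin correlated at a Pearson r of 0.60, the U-937 responses at 0.77 and the SKNO-1 responses at 0.44, each a description across genes. Corin was present in both arms here, so the response is that of ATRA in Corin-treated cells. These libraries belonged to the model that sorted the genes, so the classes were also made from a fit of the 8 DMSO and ATRA libraries alone and read in a separate fit of the 8 Corin libraries, an alternative chosen after seeing the data. Over the 17946 genes tested in both of those fits, 5.93% were higher in both lines with Corin, 3.27% lower in both, 2.99% lower in SKNO-1 and higher in U-937, and 4.17% the reverse.

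Of the 355 shared genes that rose, 247 (69.6%) were called higher in both lines, and of the 269 that fell, 108 (40.1%) were called lower in both. In the separate fits these were 212 of 262 (80.9%) and 63 of 149 (42.3%). HIC1 rose by 6.94 ± 0.21 and 7.50 ± 0.24, and RARB reached 2.37 and 2.14 CPM in SKNO-1 and 23.1 and 29.8 CPM in U-937 from 0 counts in Corin alone. EGR1 fell again in SKNO-1, by 1.35 ± 0.23, and in U-937 its change was 0.02 ± 0.28. CD38 was lowered in SKNO-1, by 0.43 ± 0.09, and raised in U-937, by 4.54 ± 0.11. PRTN3 rose by 2.31 ± 0.24 in SKNO-1 and fell by 1.48 ± 0.24 in U-937.

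U-937-restricted genes were called in the same direction in U-937 in 87.1% of the 1505 that rose and 90.5% of the 1561 that fell, and the difference was called again in 75.4% and 80.5%. In the separate fits 92.4% of 1148 and 92.2% of 1274 were called again in U-937, against 30.8% higher and 29.7% lower over all genes there. Of the 1505 that rose, 9.17% were now called higher and 8.77% lower in SKNO-1. Of the 1561 that fell, 2.95% were called higher and 9.48% lower there. Over all tested genes the shares in SKNO-1 were 6.04% higher and 7.14% lower. MYC fell by 5.52 ± 0.11 in U-937 and had a change of -0.11 ± 0.09 in SKNO-1 (edgeR adjusted p = 0.415). Of the 33 SKNO-1-restricted genes that rose, 63.6% were called higher in SKNO-1, against 6.04% of all tested genes. Of the 176 that fell, 52.8% were lower in SKNO-1, against 7.14%, and 42.6% were now called higher in U-937, against 26.4%. In the separate fits 83.3% of 24 and 57.1% of 126 were called again in SKNO-1, against 13.5% higher and 9.06% lower over all genes there. CYP26A1 rose again in SKNO-1, by 10.13 ± 0.46, and RXRA was not called there (-0.14 ± 0.15, adjusted p = 0.563).

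Of the 179 opposite genes that rose in U-937, 75 (41.9%) were again called lower in SKNO-1 and higher in U-937, against 2.06% of all tested genes. The difference was called with U-937 above in 154 (86.0%) and below in 0 of them. In the separate fits 62 of 118 (52.5%) were opposite again. GBP2 changed by -0.38 ± 0.12 and 3.40 ± 0.13, BTG2 by -0.91 ± 0.14 and 2.74 ± 0.15, CDKN1A by -0.70 ± 0.15 and 2.93 ± 0.16, and CD86 by -0.82 ± 0.12 and 4.97 ± 0.15, all 8 values called. ITGAL, in contrast, rose in SKNO-1 too, by 0.76 ± 0.19. Of the 30 reverse genes 10 (33.3%) were again higher in SKNO-1 and lower in U-937, against 1.22%, RGS16 among them (2.40 ± 0.22 and -1.78 ± 0.23), and in the separate fits 9 of 20 (45.0%). SMIM24 was not called in SKNO-1 there, with a change of -0.34 ± 0.16 (edgeR adjusted p = 0.17). Of the 27 phagocyte genes 22 were called higher and 0 lower in U-937, against 26.4% and 27.0% of all tested genes, and 10 higher and 6 lower in SKNO-1, against 6.04% and 7.14%. The difference was called with U-937 above in 22, against 18.5% of all tested genes. All 23 proliferation genes fell in U-937 when ATRA was added to Corin, and in SKNO-1 5 rose and 2 fell.

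**Figure D5:**
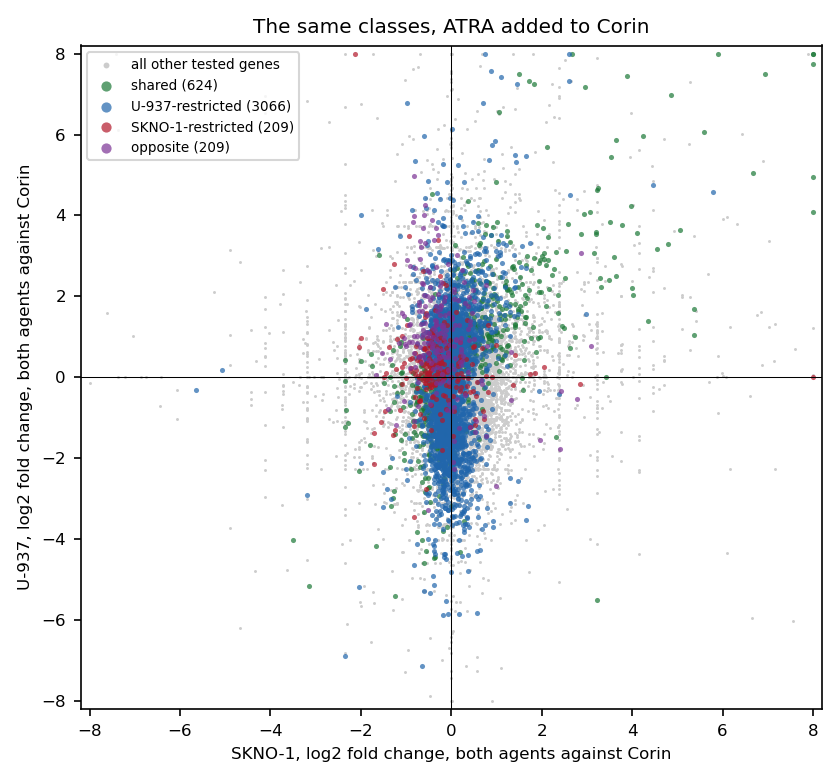
The genes and colours of the classes made without Corin, placed by the log2 fold change of cells in Corin and ATRA against cells in Corin, in SKNO-1 (x axis) and U-937 (y axis); values beyond 8 are drawn at the edge. Opposite genes that rose in U-937 lie mostly above 0 on the U-937 axis, with 154 of 179 called above SKNO-1, and SKNO-1-restricted genes spread around both axes.

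The authors' deposited tables of their own comparisons, at an adjusted p under 0.05, hold 622 called genes for SKNO-1 and 6484 for U-937. By the authors' deposited tables, the number called in both lines with the same sign was 281 and with opposite signs 82. Of the genes sorted here, 275 shared genes were also called in both lines with the same sign in the authors' deposited tables, and 77 opposite genes were also opposite there.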

How the data were processed

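RNA-seq libraries came from a strand-preserving kit for total RNA, per the labels' protocols. Reads were handled with Trimmomatic, STAR and RSEM on hg38, per the submitters' processing notes; how strand was used and the annotation release are not given in the sources used here. The authors deposited RSEM estimated counts per gene, in which reads that fit several genes are divided, and TPM values; near-identical copies and overlapping genes are therefore uncertain. The authors also deposited log2 fold changes and adjusted p-values of their own DESeq2 comparisons, used only for a count of overlap. Spike-in entries were not used here, and absolute RNA changes were not measured.

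Estimated counts were rounded, which moved no library total by more than 42.03 counts. Genes passing edgeR's filterByExpr (19872) were scaled by TMM and fitted with edgeR 4.0.16 in R 4.3.3 (robust quasi-likelihood, 8 groups, 16 libraries, 8 residual degrees of freedom, no replicate block), and the contrasts were tested with Benjamini-Hochberg adjustment over all genes at 0.05. SE is the log2 change over the root of F and is not given where a group has 0 counts. Where a group has only a few counts it understates the uncertainty and is no measure of precision. The test of the difference was tested on simulated data: over 8 draws of the 19872 genes, with 200 changed in each, it recovered 57.9% of changes of 1 log2 unit and 84.0% of 2, and 72 of 1207 calls (5.97%) were false. The number of draws was raised to 8 after the first draw alone had given 13 false calls of 159 (8.18%). The draws changed genes above 1 CPM in U-937 only, far fewer than were called here. They held no GC-linked difference between libraries such as that of the SKNO-1 DMSO group. The rate of false calls in the real data is therefore not known from them. A group at 0 counts gives a lower bound against 3 counts over the group, and 1 to 3 counts give a ratio with an exact conditional 95% interval; both cover counting error only, since duplicate reads could not be told from separate molecules. Groups of 2 are too small for a permutation test of a single gene to reach 0.05, and the p-values rest on a spread pooled over genes.

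Named genes are the first 4 of each of 8 sets (class by direction), with a symbol, at least 5 CPM in 1 of the 4 groups and both ATRA libraries beyond both DMSO libraries where called, ranked by the smaller log2 change of the lines or, for restricted classes, by the difference; genes of 14 lists were named too, and which of them to name was chosen after their values were seen. The classes, rule and lists were chosen with earlier results of these data known, and the promoter motif was redefined after a first definition had missed the 2 genes shown. Over all tested genes 2.65% rose and 4.17% fell in SKNO-1, and 18.2% rose and 17.4% fell in U-937. Of 5 retinoid carriers tested, 1 rose and 1 fell in U-937 and none was called in SKNO-1. Of 13 stem and progenitor genes 1 rose and 1 fell in SKNO-1, and 2 rose and 4 fell in U-937. Of 9 retinoid enzymes 2 rose and 1 fell in SKNO-1, and 2 rose and 2 fell in U-937. Of 18 myeloid transcription factors 2 rose and 4 fell in SKNO-1, and 5 rose and 4 fell in U-937. Identifiers matched GENCODE 44 for 60261 of 60603 genes; RefSeq windows were found for 12257 tested genes and 21 of the 32 genes named by the rule. Alternatives were DESeq2 1.42.0, library totals, no filter, fewer libraries, a replicate block, GC correction, a log2 minimum of 1 and fits by line. Some genes of these lists are not reported here by name.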

Additional observations from a re-analysis of the deposited data

Results flagged for a closer look

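The difference between the ATRA responses of the lines, tested as an interaction term with edgeR, was called in 3850 genes and in 63 of the genes named above, which are listed for that reason. Values are log2 changes in U-937 minus those in SKNO-1. Among shared genes the difference was 3.80 in CCL24, 0.76 in NCOA3, 9.31 in TGM2, 3.76 in CD38, -0.60 in ICAM1, 3.22 in ITGAM, 1.71 in CD68, 0.85 in FCGR2A and 1.93 in IRF1. Among U-937-restricted genes it was 6.71 in GPR34, -5.96 in TERT, -4.88 in NRXN3, 2.20 in DHRS9, -1.60 in RARG, -0.60 in KDM1A, 2.72 in CEBPE, -2.34 in MYC, -0.67 in MYB, 1.29 in CEBPB, 0.99 in SPI1, 5.28 in BPI, 3.79 in S100A9, 1.29 in STAT2, -0.66 in MCM6, 0.72 in RRM2, -3.05 in PSAT1, -1.49 in PHGDH and -4.65 in CBS. Among SKNO-1-restricted genes it was -9.93 in CYP26A1, -3.51 in USP32P3, -2.22 in STOX2, -2.15 in DUSP4, 3.58 in FST, 3.38 in SERINC2, 1.05 in RXRA, 2.53 in TNFSF10, -0.58 in CEBPA, 0.70 in IKZF1 and 1.10 in CTSG. Among opposite genes it was 7.93 in MS4A4A, 4.89 in ITGAL, 5.32 in GBP2, 3.69 in BTG2, -3.78 in RGS16, -2.41 in SMIM24, -1.81 in AGAP7P, -2.85 in ASB2, 3.76 in CDKN1A, 6.62 in CD86, 2.13 in FCGR1A, 2.55 in CSF3R, 2.14 in RSAD2 and -2.16 in ASNS. In KCNH4 (9.53), CREB3L3 (7.89), GBP5 (7.51), WT1 (-5.89), WWC1 (-4.99), KIRREL2 (5.07), NXN (4.63), ANKEF1 (-6.50), DHRS3 (-4.84) and CXCR5 (6.99) a group held 0 counts, so the fitted difference depends on a small added count and is no bound.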

How the results depend on the processing

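With only the 8 DMSO and ATRA libraries fitted, shared genes numbered 411 and opposite genes 138. With the GC trend removed these were 970 and 353. A minimum log2 change of 1 left 1524 called differences, 209 shared, 959 U-937-restricted and 41 opposite genes. Leaving out 1 library gave 2807 to 4965 called differences, 400 to 1051 shared, 2304 to 3620 U-937-restricted, 130 to 434 SKNO-1-restricted and 122 to 415 opposite genes, the highest numbers of the 5 all without a SKNO-1 DMSO library, and 6658 to 7207 differences with Corin. In the other alternatives run, library totals, DESeq2, no filter, fits by line, a small response in the other line and, chosen after seeing the data, genes of at least 1 CPM in both lines, each count stayed within 1.5 times its value. The cause of the shifts was not tested. Of the named genes' differences, 29 alternative values lost the threshold, 7 gained it and 0 reversed. Replicate numbers did not pair the libraries: the deviations of same-numbered libraries within a line correlated at -0.466 to 0.40. With a replicate block there were 3434 called differences, 545 shared, 2745 U-937-restricted, 197 SKNO-1-restricted and 189 opposite genes, and 7412 differences with Corin; with the GC trend removed as well the block gave 5061, 869, 3906, 278, 311 and 8491. With the block and the numbers of the SKNO-1 ATRA libraries crossed, an alternative chosen after seeing the data, there were 3721, 585, 2971, 200 and 206. With 2 libraries per group and 8 residual degrees of freedom, small responses in SKNO-1 may be missed, and a class records calls, not the absence of a response.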
